A study of Mus musculus with 6 samples.

Results

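Expression of 10 regulators of the Hippo pathway and of the trophectoderm was compared between mouse embryonic stem cells lacking Hoxd12 and wild-type cells. They were taken by symbol from a fixed list and are Yap1, Wwtr1, Tead2, Tead3, Tead4, Lats1, Lats2, Amotl2, Cdx2 and Tfap2c. All 10 were found among the 55450 genes of the deposited tables, and 8 had enough counts to be among the 12891 genes tested. Cdx2 and Lats2 did not, and are described by their counts. In short, Tead2 and Tead4 were higher in the knockout, by 1.13-fold and 1.33-fold, and the other 6 tested genes did not pass the test; over all genes tested 26.5% were called. Both calls depended on the tool and on single libraries, as given below. In bulk libraries fewer cells of a type and less RNA per cell cannot be told apart.

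The Hippo pathway is a kinase cascade that restrains the coactivators YAP (Yap1) and TAZ (Wwtr1). The kinases Stk3 and Stk4, with the adaptor Sav1, activate the LATS kinases and their partners Mob1a and Mob1b. The LATS kinases phosphorylate YAP and TAZ and keep them in the cytoplasm, where angiomotin proteins such as that of Amotl2 also bind them. Without phosphorylation YAP and TAZ enter the nucleus and act through TEAD transcription factors, which bind DNA themselves. In the preimplantation embryo this takes place in outer cells, where TEAD4 and YAP turn on Cdx2, the factor that commits cells to the trophectoderm. Inner cells, from which embryonic stem cells derive, keep the pathway on. Tfap2c encodes an AP-2 transcription factor of the trophectoderm and germ line.

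The knockout group had the genotype Hoxd12-/- and the control group was wild type, with 3 libraries each. The labels describe both as embryonic stem cells of the strain C57BL6 derived at E3.5 and grown with 2i, inhibitors of the kinases MEK and GSK3 that keep such cells naive. They do not say how the deletion was made, how many lines were used or whether libraries came from separate cultures, so p-values measure the spread between these libraries only, which may be technical. Library totals ran from 5412577 to 6280934 expected counts, and 3 counts corresponded to 0.462 to 0.567 CPM (that is, counts over library size with TMM factors), a limit for counting error only. Hoxd12 had 0 counts in all 6 libraries, so its level cannot serve as a check of genotype.

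Markers of the cells and of other types were examined next, because the 10 genes act in several lineages. All 14 embryonic stem cell markers had counts, and 1 rose, 2 fell and 11 did not pass the edgeR test. Over all genes tested 26.5% were called, 12.1% higher and 14.4% lower. Pou5f1, the core pluripotency factor, stood at 1786 ± 31.7 and 1842 ± 30.5 CPM in knockout and wild type (SD, n = 3 each), and its partner Sox2 at 176 ± 19.8 and 165 ± 7.37 CPM (adjusted p = 0.467 and 0.330). Nanog, another core factor, fell from 561 ± 64.4 to 429 ± 19.3 CPM (-0.39 as log2 fold change, adjusted p = 0.00167), and Sall4 from 206 ± 5.86 to 181 ± 16.5 CPM (-0.19, adjusted p = 0.00753). Zfp42, a gene of the naive state, rose from 187 ± 3.58 to 228 ± 12.6 CPM (0.29, adjusted p = 1.43e-05) and was called under all 14 alternatives in which it was fitted. It lies on chromosome 8 and Nanog on chromosome 6, so neither had a value without chromosomes 6, 8 and 11. The summed level was 9008 to 9560 CPM in the knockout and 8924 to 9543 CPM in wild type, but most of it came from Dppa5a and Pou5f1, so it does not show these changes. The call of Nanog was lost without knockout replicate 2 (adjusted p = 0.0934) or 3 (0.0694). That of Sall4 was lost with DESeq2 (0.0839), with the transcript length offset (0.0732), without knockout replicate 3 (0.0790) and without wild-type replicate 3 (0.0504). On log2(TPM + 1) neither was called (0.0618 and 0.486), nor on log2(TPM + 0.1) (0.0643 and 0.482).

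Markers of other cell types had low summed levels. The 12 trophoblast markers summed to 77.9 to 90.4 CPM in the knockout and 86.3 to 99.3 CPM in wild type, with Prl3d1 at 0 in all libraries, and none of the 5 tested passed. The 10 primitive endoderm markers summed to 11.2 to 17.1 against 10.8 to 13.1 CPM, with Sox7 at 0. Of these, 3 were tested and Gata4 rose. Hnf4a (-0.33, adjusted p = 0.506) and Amn (-0.68, 0.172), the others tested, were lower in the knockout without a call. Gata4, an endoderm factor, had 6.72, 2.65 and 4.0 CPM in the knockout and 1.92, 1.30 and 3.09 CPM in wild type, with overlap (log2 fold change 1.10, SE 0.37, adjusted p = 0.0247). It was not called with DESeq2 (0.203), with the transcript length offset (0.0760), on log2(TPM + 1) (0.108) or on log2(TPM + 0.1) (0.109). Leaving out knockout replicate 1, the highest, gave 0.68 (0.277). The call was also lost without wild-type replicate 1 (0.0896) or wild-type replicate 2 (0.139). Of 10 fibroblast markers Col3a1, Postn, Lum and Dcn were at 0, and the sum was 10.8 to 15.9 against 14.3 to 19.7 CPM. Thy1, a surface protein gene of that list, fell from 5.89 ± 0.347 to 2.96 ± 0.922 CPM (-0.97, adjusted p = 0.00859). Its call was lost with DESeq2 (0.12), on log2(TPM + 1) (0.0749), on log2(TPM + 0.1) (0.0789) and without knockout replicate 1 (0.0559). The 6 neural markers, none at 0, summed to 58.4 to 62.0 CPM in the knockout and 65.3 to 70.7 CPM in wild type, without overlap. Among single genes tested, the groups did not overlap in 39.7%. Tubb3, a neuronal tubulin gene on chromosome 8, fell among the neural markers, from 40.8 ± 2.75 to 31.0 ± 1.04 CPM (-0.40, adjusted p = 0.00115). It was called under 12 of 14 alternatives, but not on log2(TPM + 1) (0.0935) or log2(TPM + 0.1) (0.0920). The lower neural sum came mainly from Tubb3. The other 2 tested neural markers were higher in the knockout without a call, Sox1 at 0.53 (adjusted p = 0.166) and Nes at 0.07 (0.682). The sum over 6 mesoderm markers was 13.4 to 15.1 against 13.8 to 17.5 CPM. The part of these marker differences in the results below was not tested.

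TEAD factors recognise a short core, GGAATG or its reverse complement CATTCC. RefSeq windows of 300 bases, from 250 before to 50 after an annotated start (GRCm38.p6), were found for 8 of the 10 genes, and none was found for Tead4 or Tfap2c. The core, searched on both strands, was present in a window of 5 of these 8 genes (Yap1, Wwtr1, Tead3, Amotl2 and Lats2). For comparison, 16.6% of all 27025 genes with a window had it, and 14.7% of all windows. No match was found in the windows of Tead2, Lats1 and Cdx2. The last bases of the Tead2 window were not found in any GENCODE transcript of Tead2, so its absence holds for this window only. For each of Yap1, Wwtr1, Tead3 and Amotl2 the match farthest upstream of a start is shown, since these place the pathway's own motif beside genes of its coactivators, of a TEAD factor and of an angiomotin protein. Each is given 5′ to 3′ on the gene's strand as 30 bases, with the core in capitals.
Yap1, chr9:8004720-8004749, minus strand: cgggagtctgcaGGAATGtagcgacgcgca
Wwtr1, chr3:57576029-57576058, minus strand: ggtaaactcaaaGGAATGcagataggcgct
Tead3, chr17:28350970-28350999, minus strand: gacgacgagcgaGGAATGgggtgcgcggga
Amotl2, chr9:102717727-102717756, plus strand: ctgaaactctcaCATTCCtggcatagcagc
The core began 141 bases before the start in Yap1, 182 before an annotated start in Tead3 and 65 before the start in Amotl2. In Wwtr1 it lay 136 and 170 bases before a pair of annotated starts. The Yap1, Wwtr1 and Tead3 matches lay outside the gene's GENCODE transcripts, and the Amotl2 match lay in an exon of another Amotl2 transcript. Tead3 had a further pair of matches, 123 and 114 bases before another start, and 1 after a start, and Lats2 had 1 after a start; these lay in exons and are not shown. A match is a description of the letters in these windows and no measure of binding.

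Levels can be compared between genes only per transcript length, as TPM, in which counts are divided by length and scaled to a common total. In wild type the order was Tead2 (60.6 ± 2.67 TPM), Yap1 (17.4 ± 0.729), Tfap2c (11.8 ± 0.529), Tead4 (6.57 ± 1.05), Wwtr1 (6.42 ± 0.863) and Amotl2 (5.32 ± 0.593), each as mean ± SD of 3 libraries. Tead3 (1.04 ± 0.280), Lats2 (1.00 ± 0.330), Lats1 (0.687 ± 0.150) and Cdx2 (0.413 ± 0.0252) followed. The place of Lats2 is uncertain, because it had 6 to 9 counts per wild-type library, where Lats1 had 27 to 38. Its deposited length also ran from 896 to 2007 bases over these libraries. In the knockout Lats1 (0.983 TPM) stood above Lats2 (0.473 TPM). The ranges over libraries did not overlap between Tead2, Yap1, Tfap2c and Tead4 in that order. Tead4, Wwtr1 and Amotl2 overlapped with their neighbours, as did Tead3, Lats2 and Lats1. In the knockout the first 6 places were held by the same genes in the same order, and there the ranges of Tead4 and Wwtr1 no longer overlapped. Transcripts of the coactivators and of most TEAD genes were thus well above the level of 3 counts, while those of the LATS2 kinase and of CDX2 were close to it.

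**Figure D1:**
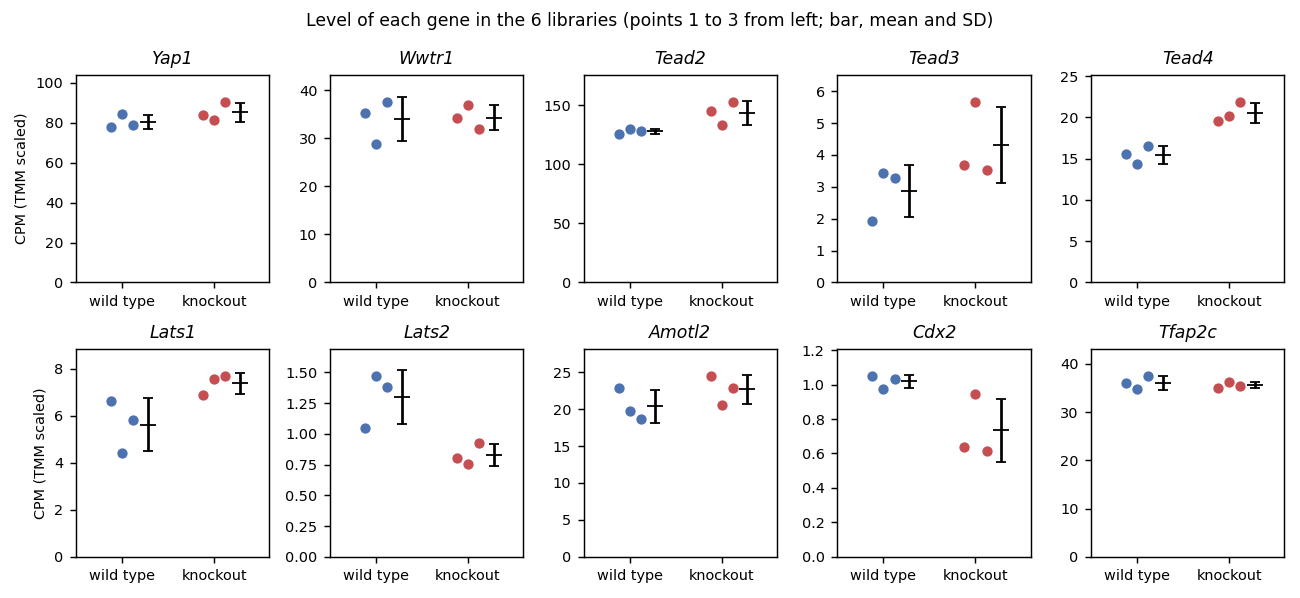
CPM (TMM scaled) of the 10 genes in the 3 wild-type (blue) and 3 knockout (red) libraries, with the mean and SD beside each group; each axis starts at 0. Tead4 was 14.3 to 16.5 CPM in wild type and 19.5 to 21.9 CPM in the knockout, while Cdx2 and Lats2 stayed at or below 1.47 CPM.

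The coactivator genes did not pass the test. Yap1 (ENSMUSG00000053110, chromosome 9, 7931999 to 8004596, GRCm38) had 83.6, 81.5 and 90.5 CPM in the knockout libraries and 77.9, 84.5 and 78.7 CPM in the wild-type libraries. The groups overlapped, the log2 fold change (knockout over wild type, here and below) was 0.09 (SE 0.06, 95% interval -0.04 to 0.21) and the adjusted p was 0.350 in edgeR's quasi-likelihood test with Benjamini-Hochberg adjustment. Over the alternatives the value for Yap1 ran from 0.04 (without knockout replicate 3) to 0.20 (both TPM fits), with no call. Wwtr1 (ENSMUSG00000027803, chromosome 3, 57455649 to 57575910) had 34.1, 36.9 and 31.9 CPM in the knockout and 35.3, 28.8 and 37.6 CPM in wild type. Its knockout values lay inside the wild-type range, and the log2 fold change was 0.01 (95% interval -0.19 to 0.22, adjusted p = 0.939). The interval therefore does not contain a change of Wwtr1 larger than 0.22 in either direction. The share of Yap1 in the summed TPM of both coactivators was 73.7%, 71.7% and 76.5% in the knockout and 71.7%, 77.0% and 70.5% in wild type.

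Of the TEAD genes, which encode the DNA-binding partners of YAP and TAZ, Tead2 and Tead4 rose. Tead2 (ENSMUSG00000030796, chromosome 7, 45215753 to 45233644) had 145, 133 and 153 CPM in the knockout and 126, 130 and 128 CPM in wild type. All knockout libraries were above all wild-type libraries, by the least in knockout replicate 2. The log2 fold change of Tead2 was 0.17 (SE 0.05, 95% interval 0.06 to 0.28, adjusted p = 0.0146). Tead4 (ENSMUSG00000030353, chromosome 6, 128224288 to 128300823), the TEAD gene required for the trophectoderm, had 19.5, 20.2 and 21.9 CPM in the knockout and 15.5, 14.3 and 16.5 CPM in wild type, again without overlap. Its log2 fold change was 0.41 (SE 0.13, 95% interval 0.16 to 0.67, adjusted p = 0.0138). Tead3 (ENSMUSG00000002249, chromosome 17, 28331671 to 28350817) had 23, 30 and 23 counts in the knockout and 11, 21 and 19 in wild type. In CPM these were 3.68, 5.67 and 3.54 against 1.92, 3.42 and 3.27, which did not overlap. The log2 fold change of Tead3, 0.56 (SE 0.32, 95% interval -0.09 to 1.2), did not pass (adjusted p = 0.205). It was 0.33 without knockout replicate 2 and 0.34 without wild-type replicate 1, and 0.96 with the transcript length offset and 1.02 on log2(TPM + 0.1), with no call in any alternative.

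Both calls were lost with DESeq2 (adjusted p = 0.197 for Tead2 and 0.213 for Tead4), in limma fits of TPM with a pseudocount of 1 (0.124 and 0.0686) or 0.1 (0.128 and 0.0680), and with a transcript length offset (0.0993 and 0.0683). Without knockout replicate 3 both were lost as well (0.122 and 0.0674). Tead2 was also lost without knockout replicate 1 (0.0626), wild-type replicate 1 (0.0663) or wild-type replicate 3 (0.0565), and Tead4 without wild-type replicate 2 (0.0688). The log2 fold change stayed between 0.13 and 0.28 for Tead2 and between 0.36 and 0.52 for Tead4 over all alternatives in which they were fitted.

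**Figure D2:**
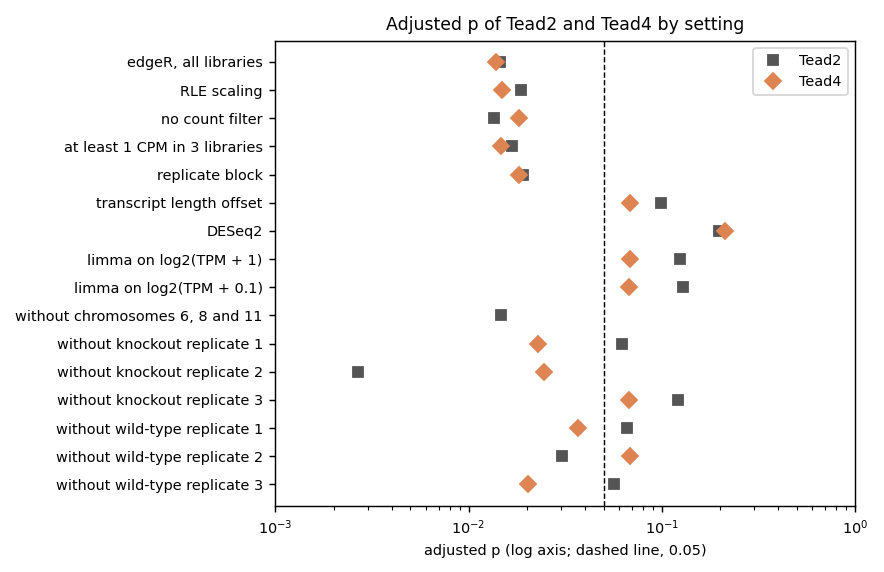
Adjusted p of Tead2 (squares) and Tead4 (diamonds) in the edgeR fit of all libraries and under each alternative, on a log axis with a dashed line at 0.05. With all libraries both lie near 0.014 to 0.015, and with DESeq2 both are near 0.2; Tead4 has no value without chromosomes 6, 8 and 11, because it lies on chromosome 6.

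Tead4 lies on a chromosome with more genes called higher than elsewhere. The median log2 fold change of the other 599 tested genes of chromosome 6 was 0.15, against 0.01 for the other autosomes, and 30.4% of them were called higher and 7.85% lower, against 12.1% and 14.4% over all genes. Tead4 was 0.26 above the median of its chromosome and 0.32 above the median of 65 tested genes within 5 Mb (median 0.09). The part of this shift in the rise of Tead4 was not tested. Chromosome 7 showed no such shift, with a median of -0.01, and Tead2 lay 0.19 above it. The medians of the chromosomes of the other 6 tested genes lay between -0.01 and 0.03.

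**Figure D3:**
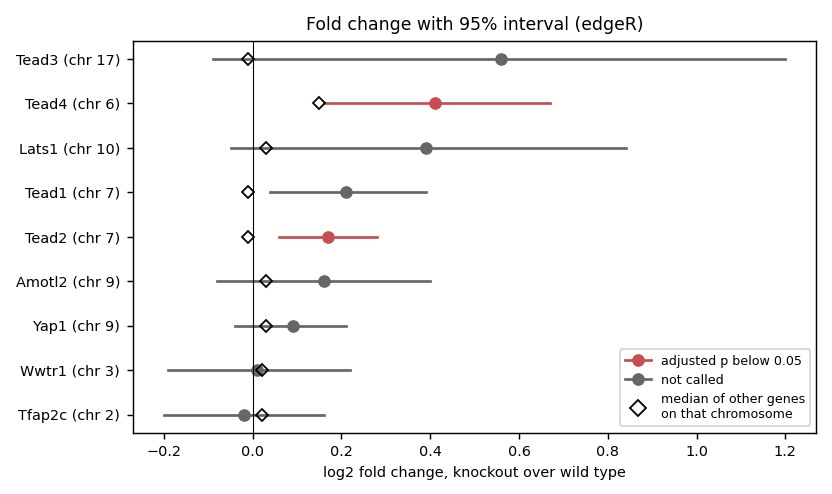
Log2 fold change of the 8 tested genes and of Tead1 with 95% intervals, red where the adjusted p was below 0.05; open diamonds give the median of the other tested genes on the same chromosome. Tead4 lies at 0.41 with its chromosome at 0.15, and Tead2 at 0.17 with its chromosome at -0.01.

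Summed over Tead1 to Tead4, expression was 88.2, 79.2 and 104 TPM in the knockout and 73.0, 74.4 and 71.4 TPM in wild type. The knockout sums were all higher, and knockout replicate 3 was highest. On the TPM scale the median log2 fold change of all tested genes was itself 0.10 with a pseudocount of 1 and 0.11 with 0.1, against 0.02 in the edgeR fit, so TPM differences are read against that shift. Tead2 supplied most TEAD transcripts, with 79.4% to 83.2% of the sum in the knockout libraries and 81.0% to 84.9% in wild type. Tead4 supplied 9.67% to 11.2% in the knockout and 7.68% to 10.8% in wild type, again with overlap. The share of Tead1 was lower in all knockout libraries (4.52% to 5.54% against 5.75% to 7.04%) and that of Tead3 higher (1.72% to 3.88% against 1.00% to 1.71%), neither with a test. Both shares depend on the deposited gene lengths, which differed between libraries for both genes, as given below. In CPM, Tead1 was instead higher in all knockout libraries (log2 fold change 0.21, adjusted p = 0.0563 with edgeR). The ratio of the TEAD sum to the sum of Yap1 and Wwtr1 was 3.31 ± 0.193 in the knockout and 3.06 ± 0.0778 in wild type, and the groups overlapped.

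Tead1 (ENSMUSG00000055320, chromosome 7, 112679318 to 112906807), the remaining TEAD gene, had 46.9, 46.1 and 44.3 CPM in the knockout and 43.0, 36.6 and 38.8 CPM in wild type. These did not overlap, but the log2 fold change of 0.21 (SE 0.08) narrowly missed the threshold (adjusted p = 0.0563; 0.0299 without wild-type replicate 1). In TPM the groups overlapped, at 4.62 ± 0.203 and 4.71 ± 0.430. TPM divides by length, and the gene length in the deposited tables differs between libraries. For Tead1 it was 9462, 9407 and 9524 bases in the knockout and 7510, 7487 and 7141 in wild type, a ratio of 1.28. Its 15 transcripts are 546 to 9964 bases long, with a pair of 9480 and 9964 bases and the next at 3047. Reported lengths that did not overlap occurred in 14.4% of 11142 tested genes with several transcripts, and in 2.67% with means at least 1.2-fold apart. With a transcript length offset the log2 fold change of Tead1 was -0.13 (adjusted p = 0.349). The length was examined after its values were seen, and it has no test here. Among Tead2, Tead3 and Tead4 the reported lengths overlapped between groups. Tead3 ranged most, with 2448, 1763 and 1754 bases in the knockout and 2448, 2448 and 2585 in wild type.

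**Figure D4:**
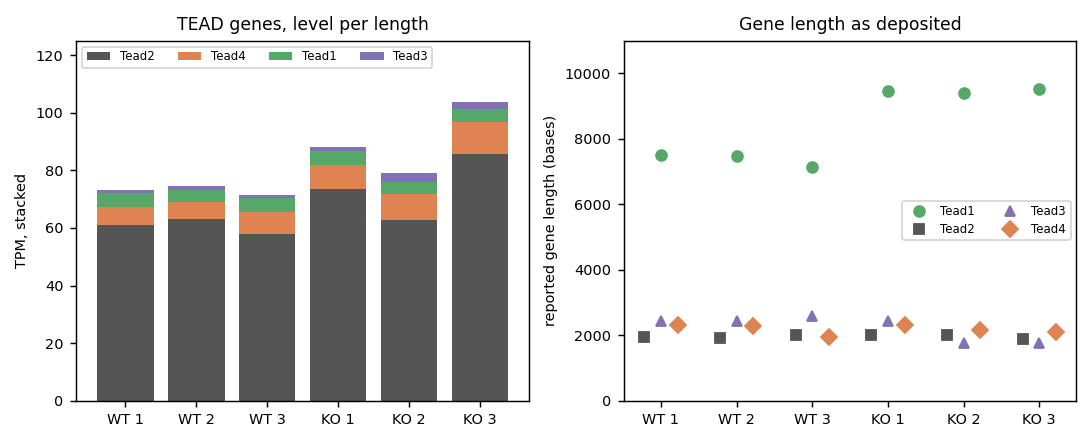
Left, stacked TPM of the 4 TEAD genes in each library; right, gene length in bases as deposited for each library. Tead2 fills most of every bar, and the Tead1 length is 9407 to 9524 bases in the knockout and 7141 to 7510 in wild type.

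The LATS kinase genes were scarce. Lats1 (ENSMUSG00000040021, chromosome 10, 7681214 to 7716460) had 43.01, 40 and 50 counts in the knockout and 38, 27 and 34 in wild type. In CPM this was 6.88, 7.56 and 7.70 against 6.64, 4.4 and 5.84, so the groups did not overlap, by a small margin to wild-type replicate 1. The log2 fold change, 0.39 (SE 0.22, 95% interval -0.05 to 0.84), did not pass (adjusted p = 0.187). It was 0.24 without wild-type replicate 2 and 0.24 on log2(TPM + 1). Lats2 (ENSMUSG00000021959, chromosome 14, 57689662 to 57758388), which is also a target of YAP, had 4.98, 4 and 6 counts in the knockout and 6, 9 and 8 in wild type. Its CPM of 0.800, 0.756 and 0.924 lay below the wild-type values of 1.05, 1.47 and 1.38. The ratio of summed counts, 15 to 23, was 0.640 after scaling (exact 95% interval 0.310 to 1.28, counting error only). With so few reads no direction can be given for Lats2, since the interval contains both a fall and a rise of up to 1.28-fold. The smallest p that an exact two-sided permutation test of 3 against 3 can give is 0.1, which it gave.

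Amotl2 (ENSMUSG00000032531, chromosome 9, 102716672 to 102733418) encodes an angiomotin protein that binds YAP and is itself a target of YAP and TEAD. It had 24.5, 20.6 and 22.9 CPM in the knockout and 22.9, 19.7 and 18.6 CPM in wild type, with overlap. Its log2 fold change was 0.16 (95% interval -0.08 to 0.40, adjusted p = 0.351), and 0.10 to 0.25 over the alternatives. Of the related genes, Amotl1 was at 20.5 ± 1.63 and 20.4 ± 0.121 CPM (log2 fold change 0.01, adjusted p = 0.979) and Amot at 2.04 ± 0.632 and 2.09 ± 0.0276 CPM (-0.06, adjusted p = 0.932). Amotl2 made up 68.6% to 74.8% of the angiomotin TPM in the knockout libraries and 68.3% to 71.9% in wild type.

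Cdx2 (ENSMUSG00000029646, chromosome 5, 147300805 to 147307270), the trophectoderm determinant, had 4, 5 and 4 counts in the knockout and 6, 6 and 6 in wild type. These are 0.640, 0.945 and 0.616 CPM against 1.05, 0.977 and 1.03 CPM, which do not overlap but differ by a few counts. The ratio of summed counts, 13 to 18, was 0.708 after scaling (exact 95% interval 0.319 to 1.53, counting error only), and the exact two-sided permutation test gave its smallest possible p of 0.1. With so few counts no direction can be given for Cdx2, since the interval contains both a fall and a rise of up to 1.53-fold. Tfap2c (ENSMUSG00000028640, chromosome 2, 172549593 to 172558622) was 35.1, 36.3 and 35.4 CPM in the knockout and 36.0, 34.7 and 37.5 CPM in wild type. The knockout values lay within the wild-type range, with a log2 fold change of -0.02 (95% interval -0.20 to 0.16, adjusted p = 0.902). In TPM the Tfap2c groups did not overlap (12.7 ± 0.596 and 11.8 ± 0.529); the median log2 fold change of all tested genes on log2(TPM + 1) was 0.10.

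Read against all genes, the 2 calls among 8 tested genes were close to the share over all genes. In the edgeR fit 26.5% of tested genes were called, 12.1% higher and 14.4% lower, while 2 of the 8 were called higher and 0 lower. The groups did not overlap in 4 of the 8, all higher in the knockout, where 39.7% of all tested genes did not overlap (2532 higher and 2582 lower). The median log2 fold change was 0.17 over the 8 and 0.02 over all tested genes, and values were above 0 for 7 of the 8 and for 6725 of the 12891. DESeq2 called 0 of the 8, and 10.5% of the genes it tested. Limma on log2(TPM + 1) called 0 and 13.2% of all (989 higher and 713 lower, where edgeR had 1559 higher and 1861 lower). With the length offset 0 of the 8 and 19.2% of all genes were called.

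The rest of the pathway was followed in a list of 34 kinases, adaptors and membrane regulators upstream of YAP. Of the 31 tested, 6 rose, 1 fell and 24 did not pass, with a median log2 fold change of 0.09; these 7 calls among 31 are fewer, as a share, than the 26.5% over all genes tested. The core kinase genes were among those that did not pass, Stk3 at 0.11 (adjusted p = 0.681) and Stk4 at -0.24 (0.0788), as were Sav1 at 0.09 (0.641) and the cortical regulator Nf2 at -0.04 (0.668). Mob1a, which encodes the LATS coactivator MOB1A, was at 52.0 ± 3.0 CPM in the knockout and 40.7 ± 2.16 in wild type, a rise of 0.36 on the log2 scale (adjusted p = 0.00111). It also lies on chromosome 6, 0.20 above the median of that chromosome. Taok3, a kinase of the TAO family that acts on the Stk3 and Stk4 kinases, rose from 15.5 ± 2.45 to 22.6 ± 2.62 CPM (0.55, adjusted p = 0.00201). Strn, a striatin of the phosphatase complex that opposes these kinases, rose by 0.43 (adjusted p = 0.0115). Ajuba (0.28), whose LIM protein inhibits LATS, the LATS-related kinase gene Stk38 (0.17) and the small GTPase gene Rhoa (0.13) rose, with adjusted p of 0.0173, 0.0261 and 0.0340. Wtip, whose LIM protein is of the same family as that of Ajuba, fell from 108 ± 3.97 to 88.3 ± 1.89 CPM (-0.29, adjusted p = 0.000198). In a further list of 5 TEAD cofactor genes and family members, Tead1 included, 2 were tested and 0 called.

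DESeq2 called Wtip alone of these 7. Limma on log2(TPM + 1) called 2 of the list, of which Taok3 alone was among these 7 (adjusted p = 0.0465). In that fit Wtip was at -0.15 (adjusted p = 0.139). With the length offset Ajuba (0.0657), Stk38 (0.164) and Rhoa (0.0556) were not called. Strn lost its call without knockout replicate 1 (adjusted p = 0.0598) or wild-type replicate 2 (0.0550), and Ajuba when knockout replicate 1 (0.0728), knockout replicate 3 (0.0901), wild-type replicate 2 (0.139) or wild-type replicate 3 (0.0778) was left out. For Stk38 these were knockout replicates 2 (0.0549) and 3 (0.0683) and wild-type replicates 2 (0.0761) and 3 (0.115). For Rhoa they were knockout replicates 1 (0.0800) and 3 (0.164) and wild-type replicates 2 (0.0728) and 3 (0.192). The list had 4 calls without knockout replicate 3 and 3 without wild-type replicate 2.

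Of 26 listed target genes of YAP and TEAD, 18 were tested, 3 rose, 2 fell and 13 did not pass, with a median of -0.04. The 5 calls are near the share over all genes tested (26.5%, with 12.1% higher and 14.4% lower). Ccn1, a classical target encoding a secreted matrix protein, had 25, 27 and 31 counts in the knockout and 49, 42 and 34 in wild type. It fell by 0.62 on the log2 scale (SE 0.23, adjusted p = 0.0469), and this call was close to the threshold. Ccn2, its relative, was 6.32 ± 1.97 and 8.45 ± 1.18 CPM with overlapping groups (-0.42, adjusted p = 0.158). Ankrd1, another classical target, had 1 count in 1 library. Fstl1, a secreted follistatin-like protein gene, rose from 52.3 ± 3.8 to 67.1 ± 3.17 CPM (0.36, adjusted p = 0.000380). Myof, a membrane repair protein gene, rose by 0.34 (adjusted p = 0.00464), and Ajuba, which stands in both lists, by 0.28. Birc5, which encodes survivin and is also a mitosis gene, fell by 0.19 on the log2 scale (adjusted p = 0.00280). It lies on chromosome 11, where the median was -0.12 and the median within 5 Mb was -0.21.

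Fstl1 was called under all 15 alternatives. Ccn1 was called under 2 of 15: among others it lost the call with DESeq2 (adjusted p = 0.334), and when knockout replicate 1 (0.167), knockout replicate 2 (0.0568), knockout replicate 3 (0.0925), wild-type replicate 1 (0.237) or wild-type replicate 2 (0.0897) was left out. Myof and Birc5 were not called by DESeq2 (0.0960 and 0.0538) or on log2(TPM + 1) (0.123 and 0.471), where Birc5 was at -0.06. With the length offset Myof was at 0.20 (0.162). The list had 3 calls, in place of 5, without knockout replicate 3 or wild-type replicate 2.

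Among 29 further trophectoderm and trophoblast genes, 17 were tested, 3 rose, 1 fell and 13 did not pass, with a median of -0.11. These 4 calls are near the 26.5% over all genes tested. Those that rose encode a pair of epithelial junction proteins and a glucose transporter. Cldn4, a tight junction claudin, had 164, 179 and 184 CPM in the knockout and 122, 110 and 111 CPM in wild type (log2 fold change 0.62, SE 0.05, adjusted p = 8.38e-11). Slc2a3, a glucose transporter gene on chromosome 6, rose from 1563 ± 21.5 to 1944 ± 35.8 CPM (0.31, adjusted p = 4.43e-07), which is 0.16 above the median of its chromosome. Dsp, which encodes the desmosomal protein desmoplakin, rose from 15.7 ± 1.04 to 22.5 ± 0.492 CPM (0.52, adjusted p = 0.00147). The gene that fell, Ascl2, encodes a transcription factor of trophoblast progenitors and went from 11.9 ± 0.952 to 7.93 ± 1.67 CPM (-0.60, adjusted p = 0.0117). Eomes, which acts beside Cdx2, was 12 ± 0.319 and 12.4 ± 0.958 CPM (-0.04, adjusted p = 0.873). Tfap2a, the paralogue of Tfap2c, was 7.22 ± 1.5 and 5.72 ± 0.443 CPM with overlapping groups (0.35, adjusted p = 0.256). The keratin genes Krt8 (-0.20, adjusted p = 0.146) and Krt18 (-0.23, adjusted p = 0.241) did not pass. Gata3 had 8, 1 and 8 counts in the knockout and 4, 14 and 10 in wild type, and Elf5 had counts in wild-type replicate 2 only.

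Cldn4 and Slc2a3 were called under every alternative in which they were fitted, 15 and 14. Dsp missed the threshold with DESeq2 (adjusted p = 0.0638) and on log2(TPM + 0.1) (0.0548). Ascl2 missed it with DESeq2 (0.188), on TPM (0.0847 with either pseudocount), with the length offset (0.0504), without knockout replicate 3 (0.0970) and without wild-type replicate 2 (0.0609).

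**Figure D5:**
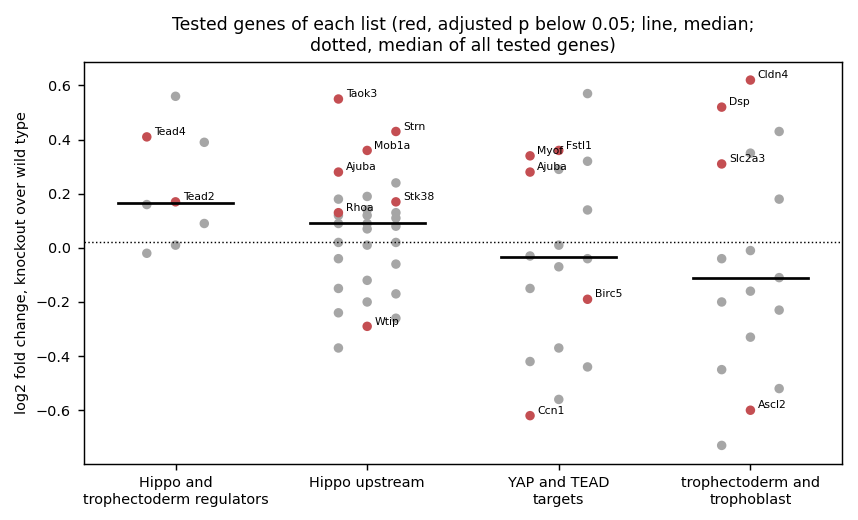
Log2 fold change of the tested genes of each list; red points passed the test and are named, horizontal lines are list medians, and the dotted line is the median of all tested genes, 0.02. The list medians are 0.17, 0.09, -0.04 and -0.11 from left to right.

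Profiles across the 6 libraries were compared by the mean absolute difference of centred log2 CPM, over 9753 genes with a mean of at least 5 CPM. The closest genes were picked by these same values, so their small differences and like fold changes follow from the choice. The genes closest to Tead2 were Cbfa2t2 (difference 0.012), Pex14 (0.017) and Alpl (0.018), where the median gene differed by 0.144. Alpl, which encodes the alkaline phosphatase that marks undifferentiated stem cells, rose by 0.16 (adjusted p = 0.0108), while Cbfa2t2 (0.19, adjusted p = 0.131) and Pex14 (0.19, adjusted p = 0.119) did not pass. The genes closest to Tead4 were Vps13d (0.023), Pdk2 (0.029) and Mef2a (0.029), against a median difference of 0.211. Vps13d rose by 0.39 (adjusted p = 0.0204), and Pdk2 (0.41, adjusted p = 0.152) and Mef2a (0.46, adjusted p = 0.111) did not pass. None of these 6 genes lies on the chromosome of the gene it resembles.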

How the data were processed

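RNA-seq tables of 6 libraries were used. Per the file headers, the authors deposited gene length, effective length, expected counts (estimated counts, not scaled for depth), TPM and FPKM; TPM and FPKM are scaled by length and library size, and FPKM entered no result. Bowtie 0.12.2 and 2 builds, mm8 and mm10, are listed in the submitters' processing notes without a role. Not given in the sources used here are the quantifier, the annotation and whether strand was used. Each of the 55450 identifiers matched GENCODE M21 (GRCm38), the source of symbols and coordinates.

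Expected counts were rounded. edgeR 4.0.16 in R 4.3.3 was run across all genes with TMM scaling, filterByExpr, robust quasi-likelihood dispersions and the group as the only term; calls have a Benjamini-Hochberg adjusted p below 0.05. The common biological coefficient of variation was 6.74%. Alternatives were RLE scaling, DESeq2 1.42.0, no filter, 1 CPM in 3 libraries, a replicate block, a transcript length offset, limma 3.58.1 on log2 TPM with a pseudocount of 1 or 0.1, removal of chromosomes 6, 8 and 11, and each library left out. The edgeR steps were tested on simulated data. Profile likeness used log2 CPM. The members and lists were chosen with earlier results of these data known. The genes named were the members, Hoxd12, Pou5f1, Sox2, Tead1, Amot, Amotl1, up to 10 called genes per list (mean CPM of 1 or more), and the 3 genes most alike to each called member; other names, the called marker genes with their alternatives included, were chosen after their values were seen.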

Additional observations from a re-analysis of the deposited data

How the results depend on the processing

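Of all tested genes 3420 changed with edgeR, 1536 with DESeq2, 1702 on log2(TPM + 1) and 1663 on log2(TPM + 0.1), and 2615 to 3210 with 1 library left out. Of the 10 Hippo and trophectoderm genes 2 were called, 0 with the length offset, DESeq2 or either TPM fit, 1 without chromosomes 6, 8 and 11 (where Tead4 was removed) and 0 to 2 with 1 library left out. Hippo upstream genes had 7 calls, 1 with DESeq2, 2 in each TPM fit and 3 to 7 with 1 library left out. YAP and TEAD targets had 5, then 2 with the length offset, 1 with DESeq2 or either TPM fit, 3 without chromosomes 6, 8 and 11 and 3 to 4 with 1 library left out. Trophectoderm genes had 4, 2 with DESeq2 or on log2(TPM + 0.1), and 3 to 5 with 1 library left out. Signs changed for genes that were not called: Wwtr1 (-0.09 to 0.09 with 1 library left out, negative without knockout replicate 2, at -0.04, or wild-type replicate 2), Tfap2c to 0.01 with the length offset and without wild-type replicate 3, 0.10 on log2(TPM + 1) and 0.11 on log2(TPM + 0.1), and Tead1 from 0.21 to -0.13, -0.02 and -0.03 with the length offset and the TPM fits; the cause was not tested. With the replicate block 3353 genes were called and the same number of members, 2; of the named genes it ended the call of Ccn1 (adjusted p = 0.0641). Deviations of same-numbered libraries correlated at 0.010, 0.041 and 0.016 over 10422 genes, and those of other pairs at -0.047 to 0.038. Knockout libraries 2 and 3 correlated best with the wild-type library of their own number, and knockout library 1 with wild-type library 3 (0.038). Values this small cannot decide whether same-numbered libraries were paired. Depth limits Cdx2 and Lats2, with 4 to 9 counts per library.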
